A study of Homo sapiens with 10 samples.

Results

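C/D box small nucleolar RNAs (snoRNAs) are short nuclear RNAs, and the 71 described here are the rows whose GENCODE symbol begins with SNORD and whose mean over 10 libraries was at least 1 CPM (counts per 1000000 counts of the library). They were selected on these measured values from 273 SNORD rows among 55841 genes, so their level is not a finding. Of the other SNORD rows, 151 had counts but a lower mean and 51 had no count in any library. At the limit, SNORD45B (1.02 CPM), SNORD6 (1.04 CPM) and SNORD88B (1.07 CPM) were just inside, and SNORD87 (0.984 CPM), SNORD99 (0.959 CPM) and SNORD37 (0.958 CPM) were just outside.

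The libraries came from human embryonic stem cells that the labels call HES9, grown in mTESR1 on matrigel and made into TruSeq RNA libraries from total RNA. The general population was not sorted, and the HHH population was sorted for high EPCAM, GCTM-2 and CD9, surface antigens of undifferentiated stem cells. Batch 1 held general replicates 1 and 2 and HHH replicates 2 and 3, and batch 2 held 3 libraries of each population. The design text also names protein kinase C inhibitors, but no label places an inhibitor on a library, and all 10 libraries share a single cell line, so values describe that line alone. Total counts ran from 47242595 to 78503395 per library. HHH batch 1 replicate 2 stood apart in its small RNAs, and results that rest on it are given with and without it. In bulk RNA, fewer cells of a type and less RNA per cell cannot be told apart.

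Each C/D box snoRNA carries a C box near its 5′ end and a D box near its 3′ end, which pair in a kink-turn bound by SNU13, NOP56, NOP58 and the methyltransferase fibrillarin (FBL). The stretch just upstream of a D box base-pairs with ribosomal or spliceosomal RNA and directs 2′-O-methylation of the paired base. A few members act differently: U3 (SNORD3), U8 (SNORD118) and U14 are needed for cleavage of the ribosomal RNA precursor, and U13 (SNORD13) directs acetylation of 18S RNA. In human cells most are cut out of introns of host genes, many of which encode ribosomal proteins or are long noncoding RNAs, while U3, U8 and U13 come from promoters of their own.

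The sequences of the members on which the results turn are given from GENCODE release 44 (GRCh38), 5′ to 3′ in DNA letters, with TGATGA within the first 20 bases (C box) and CTGA within the last 20 (D box) in capitals. The first 3 lie in introns or exons of ZFAS1, the next 3 are the other members that were higher in HHH, SNORD108 is the member that was lower, and the last pair shows how alike the SNORD116 copies are.
SNORD12: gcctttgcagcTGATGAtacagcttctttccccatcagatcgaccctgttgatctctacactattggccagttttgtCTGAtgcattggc
SNORD12B: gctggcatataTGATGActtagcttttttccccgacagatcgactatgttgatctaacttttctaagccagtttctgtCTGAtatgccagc
SNORD12C: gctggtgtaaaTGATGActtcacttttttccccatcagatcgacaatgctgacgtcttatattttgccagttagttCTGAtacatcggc
SNORD14D: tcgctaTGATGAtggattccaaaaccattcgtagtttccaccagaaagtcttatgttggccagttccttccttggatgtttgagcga
SNORD60: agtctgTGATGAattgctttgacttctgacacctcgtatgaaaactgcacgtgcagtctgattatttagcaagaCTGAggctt
SNORD100: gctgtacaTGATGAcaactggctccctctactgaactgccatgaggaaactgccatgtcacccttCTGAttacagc
SNORD108: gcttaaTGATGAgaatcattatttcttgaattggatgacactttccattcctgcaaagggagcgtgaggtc
SNORD116-18: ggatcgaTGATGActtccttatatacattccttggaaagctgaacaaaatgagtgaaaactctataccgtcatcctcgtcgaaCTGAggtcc
SNORD116-19: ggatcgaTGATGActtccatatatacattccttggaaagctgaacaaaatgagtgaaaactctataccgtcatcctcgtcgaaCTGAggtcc

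On the transcribed strand, TGATGA stood in the first 20 bases of 50 of 71 members (70.4%), against 66.3% of all 273 SNORD rows and 0.532% of 188 rows of H/ACA snoRNAs (SNORA), which belong to the other snoRNA class. CTGA stood in the last 20 bases of 64 members (90.1%), against 89.0% of SNORD and 7.45% of SNORA rows. The shared letters of the ZFAS1 trio include the run cagatcgac, which starts at base 36 in each of the 3 and is held by no other SNORD row (3 of 273, 1.1%), although the trio is only 70.0% to 73.0% identical pair by pair.

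Over both batches, 5 of 71 members were higher in HHH and none was lower, where a call needed a fold over 1.5 beside an adjusted p under 0.05 (edgeR's quasi-likelihood test with batch as a term, Benjamini-Hochberg adjustment over 23552 genes). That is against 0.637% of all tested genes called higher and 2.98% called in either direction. The 5 were SNORD12 and SNORD12C in ZFAS1, SNORD14D in HSPA8, SNORD60 in SNHG19 and SNORD100 in RPS12. The mean that selected the members took in the HHH libraries, so rows high in HHH were favoured in comparisons with all tested genes. SNORD14D averaged 0.925 CPM in general and 2.25 CPM in HHH, so it passed the 1 CPM limit through HHH. At any fold 7 members passed the adjusted p, against 5.83% of all tested genes, and the other two were SNORD12B, higher, and SNORD108, lower. The fitted log2 change of HHH over general was positive for 61 members (85.9%), with a median of 0.23, while it was positive for 53.0% of all tested genes, with a median of 0.02. HHH batch 1 replicate 2 carried much of this: without it 2 members were called, SNORD12C and SNORD14D, 47 members were positive and the median was 0.09. The count was also 2 without general batch 1 replicate 1, 3 without general batch 1 replicate 2 or general batch 2 replicate 3, and 9 without HHH batch 1 replicate 3.

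All 3 snoRNAs of ZFAS1, a noncoding RNA gene on chromosome 20, were higher in HHH. SNORD12C, a methylation guide of chr20:49278940-49279028 with no base in an annotated exon, stood at 3.43 and 3.87 CPM in the general libraries of batch 1 and at 9.75 and 6.36 CPM in HHH. In batch 2 it stood at 1.65, 2.00 and 1.00 CPM in general and at 2.42, 3.23 and 2.21 CPM in HHH. Here and below, CPM given per library are scaled by TMM, the trimmed mean of M-values. Every HHH library was above every general library of its batch, and the log2 change was 0.93 (SE 0.19, adjusted p = 0.0079 by edgeR with Benjamini-Hochberg adjustment).

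SNORD12, chr20:49280683-49280772 and wholly within annotated ZFAS1 exons, stood in batch 1 at 4.51 and 5.05 CPM in general against 10.7 and 7.26 CPM in HHH. In batch 2 it stood at 2.14, 2.53 and 1.82 CPM in general against 3.07, 3.44 and 3.04 CPM in HHH, again with no overlap in either batch. Its log2 change was 0.71 (SE 0.14, edgeR adjusted p = 0.0061). SNORD12B, between them at chr20:49280319-49280409, rose by 0.58 on the log2 scale (SE 0.14, edgeR adjusted p = 0.020), just under the 1.5-fold limit, from 6.91 and 9.11 to 16.0 and 10.1 CPM in batch 1 and from 3.98, 4.51 and 3.92 to 5.43, 6.67 and 5.34 CPM in batch 2.

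The host itself was not called. ZFAS1 stood at 95.5 and 74.8 CPM in general and at 76.2 and 75.1 CPM in HHH in batch 1, and at 66.9, 66.5 and 74.3 CPM against 62.3, 66.2 and 90.0 CPM in batch 2. Its libraries overlapped in both batches, and its log2 change was -0.02 (SE 0.11, edgeR adjusted p = 0.92). Per 1000 ZFAS1 counts, SNORD12C had 35.9 and 51.8 counts in general and 128 and 84.8 in HHH of batch 1, and 24.7, 30.1 and 13.5 counts against 38.9, 48.8 and 24.6 in batch 2. On that scale the batch 2 libraries overlapped, because HHH replicate 3 had the most ZFAS1. The difference between each snoRNA and its host was not tested.

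SNORD12C was called and SNORD12 passed the adjusted p whichever of the 10 libraries was left out, although SNORD12 was below 1.5-fold (log2 change 0.58) without HHH batch 1 replicate 2. SNORD12B missed the adjusted p in 5 of 10 such fits (0.051 to 0.067): without HHH batch 1 replicate 2, HHH batch 2 replicate 2, general batch 1 replicate 1, or general batch 2 replicate 1 or 3.

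**Figure D1:**
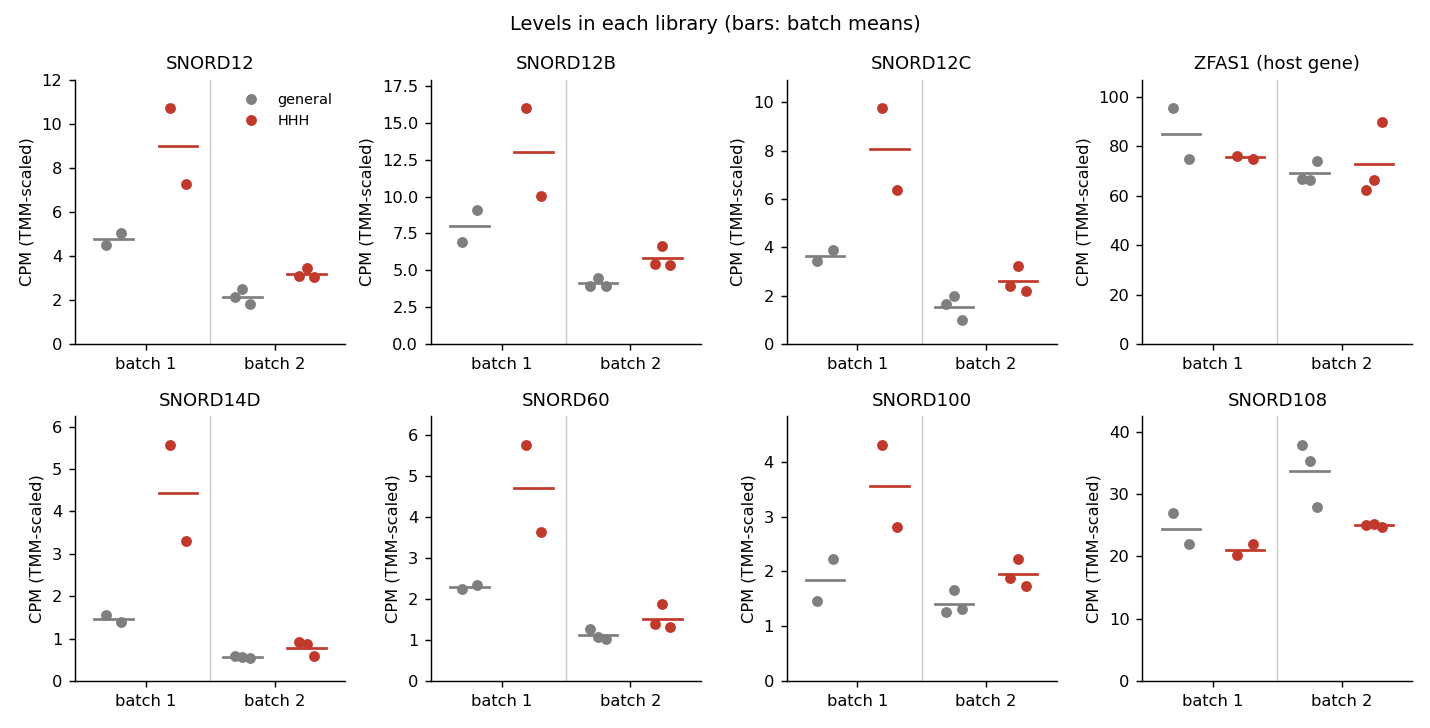
TMM-scaled CPM of 7 snoRNAs and the host gene ZFAS1 in each library (points, general grey, HHH red), by batch, with bars at the batch means. The 3 ZFAS1 snoRNAs were higher in HHH in both batches while ZFAS1 overlapped, the batch means of the 5 called members were lower in batch 2 in each population, and SNORD108 was lower in HHH in batch 2.

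SNORD14D, a copy of U14, had the largest change and few counts, from 32 in its lowest library. It lies at chr11:123058909-123058995 in HSPA8, which encodes a constitutive HSP70 chaperone. All its bases are within annotated exon sequence on its strand, so reads over them cannot be told apart. In batch 1 it stood at 1.55 and 1.39 CPM in general and at 5.57 and 3.30 CPM in HHH. In batch 2 it stood at 0.590, 0.562 and 0.534 CPM in general and at 0.910, 0.865 and 0.583 CPM in HHH, where the lowest HHH library lay within the general range. The log2 change was 1.03 (SE 0.24, edgeR adjusted p = 0.017), and HSPA8 differed by 0.25 (adjusted p = 0.21). Blocked on replicate number, SNORD14D had an adjusted p of 0.059, and without general batch 1 replicate 1 or 2 it was 0.063 or 0.058.

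SNORD60, a 28S methylation guide at chr16:2155023-2155105 in SNHG19, stood at 2.24 and 2.35 CPM in general and at 5.77 and 3.64 CPM in HHH of batch 1. In batch 2 it stood at 1.27, 1.07 and 1.03 CPM against 1.39, 1.87 and 1.31 CPM, with no overlap in either batch. The log2 change was 0.71 (SE 0.18, edgeR adjusted p = 0.028). SNORD60 lies wholly within annotated exon sequence on its strand, and its host SNHG19 differed by 0.28 (edgeR adjusted p = 0.20). The adjusted p was 0.059 with the replicate block, and 0.056 to 0.086 in the 6 fits that left out HHH batch 1 replicate 2, HHH batch 2 replicate 2, either general library of batch 1, or general batch 2 replicate 2 or 3.

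SNORD100, an 18S methylation guide at chr6:132816802-132816877 in an intron of RPS12, stood at 1.46 and 2.23 CPM in general and at 4.31 and 2.82 CPM in HHH of batch 1. In batch 2 it stood at 1.25, 1.67 and 1.32 CPM against 1.87, 2.23 and 1.73 CPM, again with no overlap. The log2 change was 0.67 (SE 0.18, edgeR adjusted p = 0.039) beside 0.15 for RPS12 (adjusted p = 0.54). In 7 of 10 fits with a library left out the adjusted p was 0.051 to 0.11: without HHH batch 1 replicate 2, HHH batch 2 replicate 1 or 2, either general library of batch 1, or general batch 2 replicate 1 or 3.

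SNORD108, an orphan guide of the imprinted chromosome 15 region at chr15:24986925-24986995, fell by 0.35 on the log2 scale (SE 0.094, edgeR adjusted p = 0.045), less than 1.5-fold. It lies wholly within annotated exon sequence on its strand, and reads over those bases cannot be told apart. The genes that contain it, ENSG00000214265 and SNHG14, had log2 changes of -0.13 and -0.23 (edgeR adjusted p = 0.34 and 0.069). SNORD108 stood at 27.0 and 21.9 CPM in general against 20.2 and 22.0 CPM in HHH of batch 1, where the groups overlapped. In batch 2 it stood at 37.9, 35.4 and 28.0 CPM against 25.1, 25.3 and 24.7 CPM, with every HHH library lower. The adjusted p was 0.053 with the replicate block and 0.083 to 0.14 in 7 fits that left out a library, namely any HHH library but batch 1 replicate 3, or general batch 1 replicate 1, batch 2 replicate 1 or batch 2 replicate 2.

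Without any overlap in both batches, 10 members (14.1%) were higher in HHH and none was lower, beside 3.93% of tested genes higher in that way. Besides SNORD12, SNORD12B, SNORD12C, SNORD60 and SNORD100 these were SNORD32A, SNORD43, SNORD45B, SNORD45C and SNORD83B, whose adjusted p ran from 0.056 (SNORD43) to 0.28 (SNORD32A). The mean that selected the members took in the HHH libraries, so this share is favoured too. SNORD45B was just inside the limit (1.02 CPM over all libraries), so its place among the members leans on HHH.

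Within batch 1 alone, 1 member was called, SNORD14D (log2 change 1.59, edgeR adjusted p = 0.049), against 0.573% of all genes tested there, and the members' median was 0.42. Within batch 2 alone 2 were called, against 4.9% of genes: SNORD12C was higher by 0.75 (edgeR adjusted p = 0.047) and SNORD3C had a log2 change of -0.59 (adjusted p = 0.038), with a median of 0.21 over the members. The SNORD3C call was lost with the replicate block, where its log2 change of -0.56 was just under the 1.5-fold limit (edgeR adjusted p = 0.0059). It was also lost with RLE scaling (-0.58, adjusted p = 0.041) and with DESeq2 (-0.58, adjusted p = 0.12). Leaving out HHH replicate 1 or 3 or general replicate 2 or 3 lost it too (edgeR adjusted p = 0.064 to 0.17). The SNORD12C call was lost with library size only (edgeR adjusted p = 0.076) and without HHH replicate 2 or 3 or general replicate 1 or 3 (0.068 to 0.16). SNORD12 (0.55), SNORD12B (0.48) and SNORD108 (-0.44) also passed the adjusted p in batch 2. SNORD12 missed it with library size only (0.060) and without any library but general replicate 2 (0.0505 to 0.13). SNORD12B missed it without HHH replicate 2 or general replicate 1 or 3, and SNORD108 without general replicate 1. Of 71 members, 43 were positive in both batches, and the change was larger in batch 1 for 55. No member passed the test of a difference between the batches' changes by edgeR or by DESeq2, against 0.777% of tested genes by edgeR. At an unadjusted p under 0.05 by edgeR there were 9 of 71 members, beside 4447 of 23552 tested genes. The members' median difference, batch 2 less batch 1, was -0.27. With the replicate block 6 passed, all with the smaller change in batch 2: SNORD3C, SNORD13, SNORD15A, SNORD15B, SNORD33 and SNORD116-16. In batch 1 that block compares only HHH replicate 2, the library that stood apart, with general replicate 2. The blocked test was not run without that library.

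HHH batch 1 replicate 2 stood apart from its partner. It held the highest level of the 4 batch 1 libraries for 62 of 71 members (87.3%), against 28.3% of all tested genes, and its median ratio to HHH replicate 3 was 1.53 over members and 0.996 over all tested genes. Without it batch 1 had no call and a median of 0.08, 31 members were positive in both batches, 32 had the larger change in batch 1, and the members' median difference between the batches' changes was 0.06. Without HHH replicate 3, batch 1 had 21 calls and a median of 0.71. Leaving out general batch 1 replicate 2 gave 8 calls there. H/ACA snoRNAs (69 of 73 rows highest, median ratio 2.00) and spliceosomal RNAs (46 of 48 rows highest, median ratio 2.83) were also high in that library. In batch 2 the 2 calls became none without HHH replicate 3 or general replicate 3, and 1 without HHH replicate 2 or general replicate 1. Without HHH replicate 1 the calls were SNORD118 and SNORD12C, and without general replicate 2 they were SNORD3B-2, SNORD12 and SNORD12C.

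**Figure D2:**
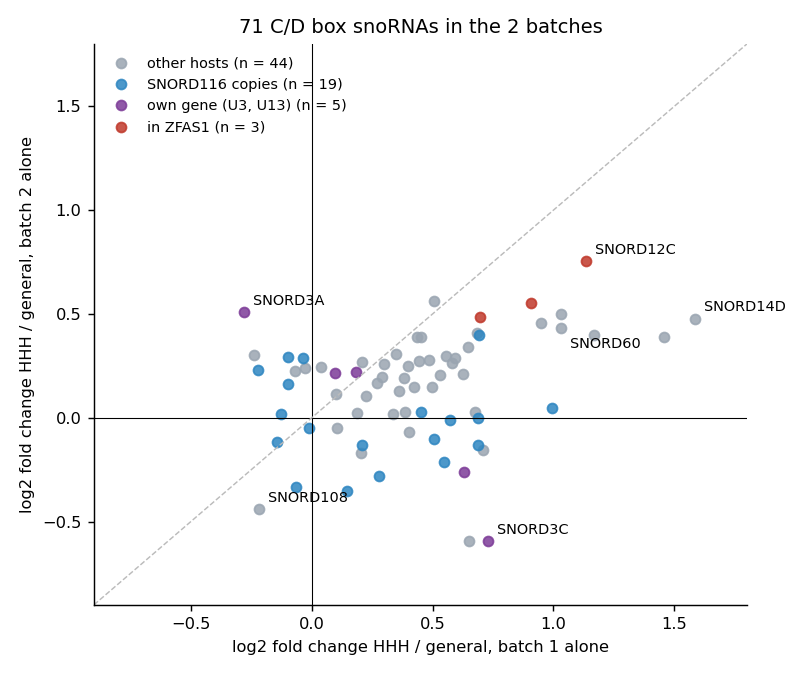
Log2 fold change of HHH over general in batch 1 alone (x) and batch 2 alone (y) for the 71 members, coloured by where they lie, with equality as a dashed line. The change was positive in both batches for 43 members and larger in batch 1 for 55, and the ZFAS1 trio was positive in both.

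H/ACA snoRNAs, which guide pseudouridylation, had a median log2 change of 0.23 over 72 tested rows, with 64 positive and 1 called higher. Small Cajal body RNAs (SCARNA, 11 rows) had a median of 0.08 and no call, and spliceosomal RNAs (RNU and RNVU, 46 tested rows) had a median of 0.57 and 5 called higher. Without HHH batch 1 replicate 2 the H/ACA median was -0.03 and the spliceosomal median 0.25, beside 0.09 for C/D box members.

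U3, the RNA of the small-subunit processome, gave 84.7% of all member counts through SNORD3A. Per kilobase of annotated length, SNORD3A had a mean level of 12821 CPM, followed by SNORD17 (1169), SNORD3C (965), SNORD116-18 (765) and SNORD116-19 (674). SNORD3A stood in batch 1 at 23630 and 16234 CPM in general and at 20528 and 12525 CPM in HHH, and in batch 2 at 2981, 2804 and 1095 CPM against 2782, 3268 and 3771 CPM. The groups overlapped in both batches (log2 change 0.20, SE 0.25, edgeR adjusted p = 0.69).

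SNORD3C stood in batch 2 at 134, 184 and 239 CPM in general and 106, 141 and 124 CPM in HHH, where the groups overlapped, and in batch 1 at 913 and 838 CPM against 2301 and 624 CPM. Over both batches its log2 change was -0.06 (SE 0.31, adjusted p = 0.94). The annotated SNORD3A and SNORD3C are 99.8% identical over the shorter row, so a split of reads between U3 rows is uncertain. Summed over SNORD3A, SNORD3B-1, SNORD3B-2 and SNORD3C, U3 stood at 25078 and 17467 CPM in general and 23546 and 13461 CPM in HHH of batch 1, and at 1371 to 3151 CPM in general and 2936 to 3957 CPM in HHH of batch 2, with overlap in both. SNORD3B-1 and SNORD3B-2 differed by 0.17 and 0.21 over both batches (adjusted p = 0.66 and 0.64).

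U8 (SNORD118), needed for 5.8S and 28S RNA maturation, stood at 34.7 and 30.0 CPM in general and 63.8 and 28.6 CPM in HHH of batch 1, and at 1.63, 2.12 and 1.63 CPM against 2.03, 3.30 and 2.67 CPM in batch 2. The groups overlapped in both batches, and the log2 change of 0.54 (SE 0.19) had an edgeR adjusted p of 0.12. It was 0.0057 with the replicate block (log2 change 0.75) and 0.0044 without HHH batch 1 replicate 3. In batch 1 both of these fits rest on HHH batch 1 replicate 2, and without that library the edgeR adjusted p was 0.41. SNORD118 lies wholly within an annotated exon of TMEM107, whose counts moved with it (0.42, adjusted p = 0.12), and reads over those bases cannot be told apart. U13 (SNORD13) stood at 31.6 CPM in HHH batch 1 replicate 2 and at 12.1 to 14.2 CPM in the other batch 1 libraries, and its log2 change was 0.11 (SE 0.23, adjusted p = 0.83). SNORD17, in SNX5, differed by 0.09 (SE 0.16, adjusted p = 0.78). The other members of 130 bases or more among the 10 highest, SNORD97 in EIF4G2 and SNORD10 in EIF4A1, had log2 changes of 0.16 and 0.17 (adjusted p = 0.70 and 0.69).

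The imprinted cluster in SNHG14 on chromosome 15, expressed from the paternal copy and deleted in Prader-Willi syndrome, supplied 19 of 28 SNORD116 rows and none of 45 SNORD115 rows, whose highest mean was 0.0153 CPM. No member came from the chromosome 14 cluster of 8 SNORD113 and 29 SNORD114 rows. None of the 19 SNORD116 members passed the test over both batches, with 1 at an unadjusted p under 0.05 by edgeR, beside 4923 of 23552 tested genes. Their median log2 change was 0.11 from -0.22 (SNORD116-6) to 0.54 (SNORD116-9). The median was 0.21 in batch 1 and -0.01 in batch 2. Without HHH batch 1 replicate 2 it was 0.02 over both batches and -0.05 in batch 1. SNHG14 stood at 658 and 613 CPM in general against 553 and 564 CPM in HHH of batch 1, and at 755, 706 and 674 CPM against 613, 596 and 577 CPM in batch 2, with every HHH library below every general library of its batch, with a log2 change of -0.23 (SE 0.069, edgeR adjusted p = 0.069).

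SNORD116 copies differed in level by up to 58.9-fold, and the 4 highest, SNORD116-18, SNORD116-19, SNORD116-13 and SNORD116-14, gave 70.9% of their summed CPM. SNORD116-18 stood at 90.8 and 70.3 CPM in general and 85.2 and 63.1 CPM in HHH of batch 1, and at 63.6, 80.6 and 51.4 CPM against 64.2, 66.5 and 68.4 CPM in batch 2, with overlap in both. Copies with the same annotated letters had different counts. SNORD116-19 and SNORD116-17 are 100% identical but had mean levels of 62.0 and 5.09 CPM, and SNORD116-7 and SNORD116-5, also identical, had 14.3 and 1.23 CPM. In all, 15 of the 19 copies share at least 95% of letters with another SNORD row, and 6 share all, so counts of single copies are uncertain.

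**Figure D3:**
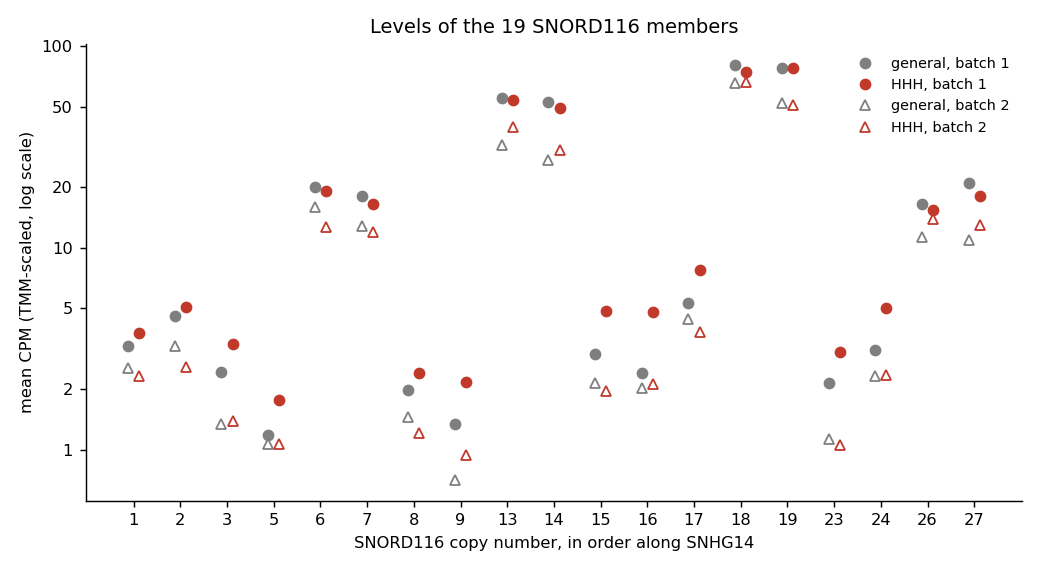
Mean TMM-scaled CPM (log scale) of the 19 SNORD116 members in their order along SNHG14, for each population (general grey, HHH red) in batch 1 (filled circles) and batch 2 (open triangles). The highest and lowest copies differ by 58.9-fold, and SNORD116-18 and SNORD116-19 are the highest in each population and batch.

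No host gene was called. The 66 members with a host lie in 31 genes, and 5 of those 66 members were called. Of the 31 hosts 6 had an unadjusted p under 0.05 by edgeR, beside 4923 of 23552 tested genes, and none was called by DESeq2. The median log2 change was 0.09 over the hosts. A member's change exceeded its host's in 58 of 66 members, by a median of 0.29. The 19 SNORD116 copies are all set against a single value, that of SNHG14 (-0.23), and outside them 39 of 47 members exceeded their host. Without HHH batch 1 replicate 2 a member's change exceeded its host's in 47 of 66, SNORD116 copies included, by a median of 0.14. The medians were then 0.10 over members with a host and 0.07 over the hosts. Across the 66 members the 2 changes correlated with r = 0.50 (Pearson) and rho = 0.46 (Spearman), where members of a host share its value and all share the same libraries. This compares rows that overlap: 49 members lie wholly and 4 partly in an annotated exon of another gene, and 18 have no base in one. Those 18 had a median of 0.23, or 0.04 without HHH batch 1 replicate 2, with SNORD12C and SNORD100 called from all libraries.

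In RPL3, a large-subunit protein gene, SNORD43 (0.53), SNORD83B (0.42) and SNORD83A (0.33) were all positive beside 0.02 for RPL3, and none passed. In RABGGTB, a subunit gene of a protein prenyltransferase, SNORD45A (0.42), SNORD45B (0.43) and SNORD45C (0.48) lay close together beside 0.09 for the host, with adjusted p from 0.073 to 0.18 by edgeR. In RPL7A, SNORD24 and SNORD36A had log2 changes of 0.36 and 0.35 but SNORD36C had 0.02, and in RPL13A SNORD35A and SNORD32A had 0.27 and 0.22 but SNORD33 had -0.01. Over the 21 members in ribosomal protein genes the median was 0.28, over 17 in other protein-coding genes 0.33, and over the 7 in noncoding hosts other than SNHG14 0.58. Without HHH batch 1 replicate 2 these medians were 0.15, 0.17 and 0.44. Of the 7 in noncoding hosts, 3 lie in ZFAS1 and SNORD60 is another, so their median partly repeats the results given above.

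**Figure D4:**
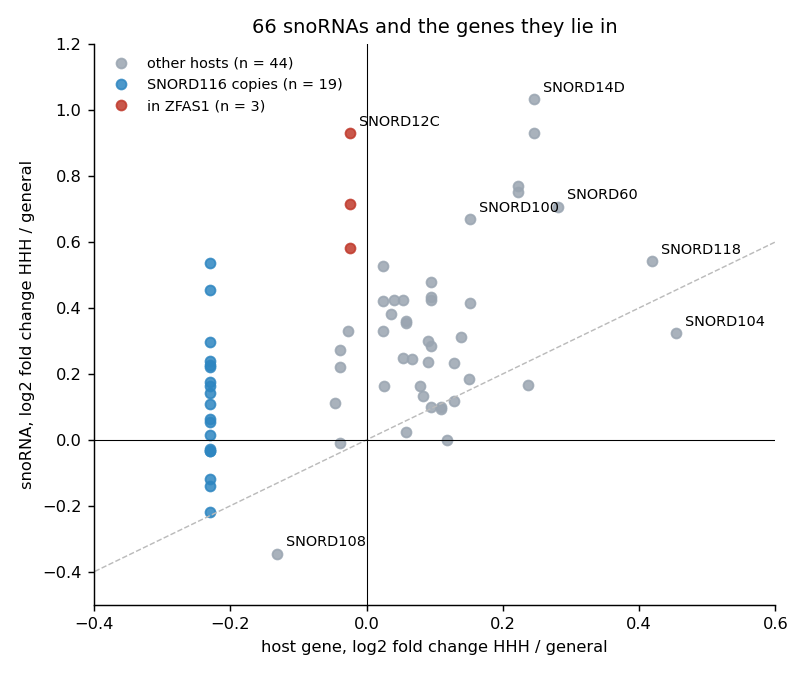
Log2 fold change of HHH over general for 66 members (y) and for the gene each lies in (x), both batches, with equality as a dashed line. The members exceeded their host in 58 of 66 cases, ZFAS1 and SNHG14 hold members of differing change, and no host passed the test. The 19 SNORD116 copies share the value of SNHG14.

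No gene in the lists of proteins that build or use these RNAs was called in the fit of both batches. None of 4 core proteins passed the test, from -0.00066 (FBL, adjusted p = 0.997) to 0.18 (SNU13, adjusted p = 0.16), and NOP56, itself a host of SNORD86 and SNORD110, had 0.13. None of 7 assembly factors, 6 cap and transport factors, 7 processome proteins, 6 release and trimming enzymes or 4 H/ACA core proteins passed by edgeR in that fit, and the smallest adjusted p among them was 0.11. Of these 34 genes, none passed in batch 1 alone and 1 did in batch 2 alone, NHP2 of the H/ACA core (log2 change 0.35, edgeR adjusted p = 0.027). The median log2 changes of these last 5 lists over both batches were 0.12, 0.03, 0.11, 0.04 and 0.21.

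Every long member was lower in batch 2. With population as a term, batch 2 less batch 1 was negative for 69 of 71 members, with a median log2 difference of -1.06, against 0.00 over all tested genes. The other short RNAs were lower too, with medians of -2.44 over H/ACA snoRNAs (0 of 72 positive), -1.26 over SCARNA and -3.50 over spliceosomal RNAs (2 of 46 positive). These values are a description, since the mean that selected the members rests mostly on batch 1, where all 71 averaged at least 1 CPM, while 56 did so in batch 2. The 11 members of 134 bases or more ran from -4.14 (SNORD118) to -2.30 (SNORD15B), and the 60 members of 64 to 110 bases ran from -1.99 to 0.36 (SNORD108), with no overlap. Over the 71 members, length and the batch difference correlated with r = -0.65 (Pearson, log2 length) and rho = -0.34 (Spearman), with the same libraries behind every point. The SNORD116 copies had a median of -0.72, and U3 one of -2.99 with annotated rows longer than the mature RNA. The members took 1.34% to 2.22% of a library's counts in batch 1 and 0.211% to 0.464% in batch 2. What differed between batches in extraction, library preparation or fragment size is not given in the sources used here, so batch and any such step cannot be told apart.

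**Figure D5:**
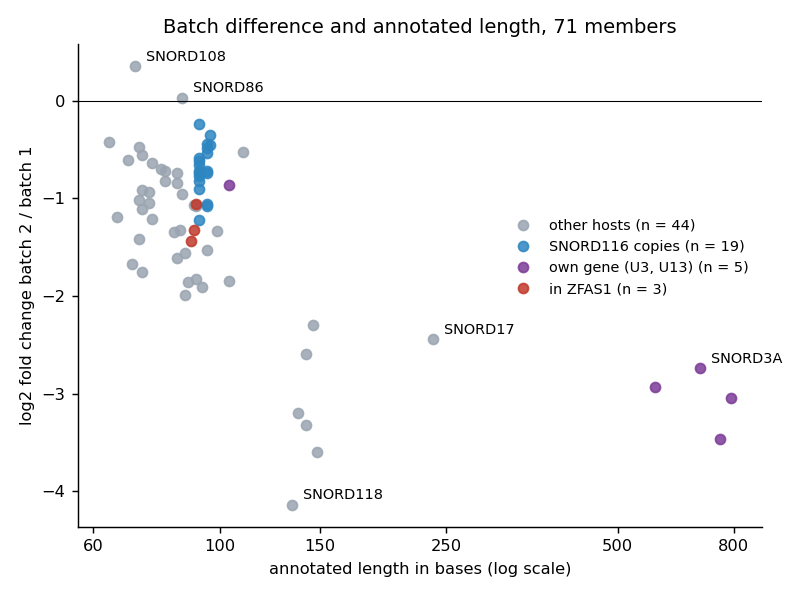
Log2 fold change of batch 2 over batch 1 (y) against annotated length (x, log scale) for the 71 members, coloured by where they lie. The 11 members of 134 bases or more lie at -2.30 or lower and the 60 shorter members at -1.99 or higher.

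Stem cell markers were present in all libraries, with POU5F1 at a mean of 516 CPM in general and 570 CPM in HHH. Of 6 pluripotency markers, NANOG was higher in HHH and SOX2 lower by adjusted p, both under 1.5-fold. In batch 2 alone TDGF1 (0.53) and DPPA4 (0.38) also passed (edgeR adjusted p = 0.0033 and 0.035). In batch 1 alone their log2 changes were 0.01 and -0.14, and neither passed. Of 8 neural markers 5 of 7 tested were called lower in HHH, while PAX6 (-0.15) and NES (-0.23) did not pass by edgeR (adjusted p = 0.66 and 0.38). NES passed in batch 2 alone (-0.53, adjusted p = 0.019) but was higher in HHH in batch 1 (0.22, adjusted p = 0.52). The eighth marker, FEZF2, was tested in batch 1 alone, where it was higher in HHH (3.11 and 5.22 CPM against 0.0306 and 0.0335 CPM, edgeR adjusted p = 0.00049). The markers' summed level ran from 295 to 412 CPM in general and from 176 to 287 CPM in HHH. Of 5 genes listed as fibroblast markers THY1 was called higher (mean 141 CPM in general and 217 CPM in HHH) and COL1A1 lower (-0.94). COL1A2 had a log2 change of -0.28 (edgeR adjusted p = 0.11) and passed in batch 2 alone (-0.43, adjusted p = 0.015). COL3A1 had at most 8 counts in a library and DCN at most 1. Sums were 260 to 278 CPM in general and 288 to 342 CPM in HHH. The higher sum in HHH came from THY1 alone, so it is not a measure of fibroblasts. The 7 mesendoderm markers summed to at most 2.57 CPM, with GATA6 at 0 in all HHH libraries and at no more than 2 counts in any general library. TBXT, tested in batch 2 alone, was lower in HHH (-1.84, edgeR adjusted p = 0.0027). MIXL1 (0.33 over both batches) and FOXA2 (1.60 in batch 1 alone) did not pass (edgeR adjusted p = 0.36 for each). The part of these cells in the snoRNA differences was not tested.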

How the data were processed

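RNA was measured in 5 general and 5 HHH libraries of 1 human embryonic stem cell line, in 2 batches. The authors deposited counts of fragments per Ensembl gene for all 10 libraries and a table of log2 RPKM values after TMM scaling, per the file names, treated here as a score because its batch means are equal gene by gene (largest difference 9.24e-14). The submitters' processing notes name GRCh37, CASAVA 1.8.2, R 3.2.2 and limma 3.26.9. The aligner, the counter, the annotation and the treatment of reads with several positions are not given in the sources used here. Identifiers were matched to GENCODE 44 (88.5% of 55841, and unmatched rows held 7.44% to 20.3% of a library's counts), which gave symbols, hosts, lengths, sequences and GRCh38 positions. None of the deposited values was converted between builds. The log2 table gives no depth of its own.

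The members and gene lists were chosen with earlier results of these data known. Counts were filtered by filterByExpr (minimum count 10), TMM-scaled and tested with edgeR 4.0.16 (glmQLFit and glmQLFTest, R 4.3.3), with batch as a term and Benjamini-Hochberg adjustment over all genes tested. A call needed an adjusted p under 0.05 and a fold over 1.5 (for the interaction, the adjusted p alone). Batches were also tested alone and by interaction. The labels do not say that replicates are separate cultures, so p-values measure the spread between these samples. A count of 3 in a library corresponds to 0.0460 to 0.0687 CPM. The steps were tested on simulated data. For the fit of both batches (23327 genes), 81 of 100 genes changed by 1.5-fold and 100 of 100 changed by 2-fold were recovered. Corresponding numbers were 9 and 76 for batch 1, 37 and 98 for batch 2 and 1 and 37 for the interaction. The changed genes were drawn from those with a mean over 100 counts, and every gene had the same dispersion. Recovery among members of lower counts or wider spread was therefore not measured.

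Named were all called members, the 10 of highest mean, the U3, U8, U13 and SNORD17 rows, those next to the 1 CPM limit, examples of imprinted clusters and of hosts with 3 or more members, and their hosts. SNORD12B and SNORD108 and other members named for their adjusted p, overlap or interaction were named after their values were seen. ZNHIT3 among the assembly factors was not analysed here. Same-numbered libraries deviated together (correlation 0.113 in batch 1, where 2 libraries a group fix its size, and 0.239, 0.143 and 0.113 in batch 2), so blocked values are given where they change a call. In batch 1 only number 2 occurs in both populations, so there the block compares HHH replicate 2 with general replicate 2 alone. Without HHH batch 1 replicate 2 the block leaves no comparison in batch 1. Alternatives were other scalings (RLE, upper quartile, library size, without small RNA rows), filters, DESeq2 1.42.0, limma 3.58.1 on voom weights or on the deposited log2 values, no batch term, the replicate block, other limits and each library left out.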

Additional observations from a re-analysis of the deposited data

Results flagged for a closer look

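In the HHH group of 5 libraries, HHH batch 1 replicate 2 lay far above the others in 4 of 22 members examined, by the gap to its nearest neighbour as a share of the group's range, which chance exceeds in about 1 of 20 groups. The values there were 2301 CPM for SNORD3C (the other HHH libraries 106 to 624), 85.2 CPM for SNORD116-18 (63.1 to 68.4), 166 CPM for SNORD97, a guide to a transfer RNA (16.4 to 58.3), and 31.6 CPM for SNORD13 (7.87 to 12.1). The batches differ in level, so the 5 libraries of a group are not alike. No general group was flagged among the 44 groups examined, and the cause was not tested.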

How the results depend on the processing

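The members' median log2 change of 0.23 ranged from 0.08 (deposited log2 values, where the median of all genes was -0.12) to 0.33 and was 0.09 without HHH batch 1 replicate 2. The count of members called over both batches, 5, was 3 with library size only, 9 without the filter, 2 at an adjusted p under 0.01, 1 at a fold over 2, 0 among members of at least 5 CPM, 2 among members free of other exons, and 0 with no batch term and 0 on the deposited log2 values. Leaving out a library gave 2 to 9. In batch 1 the count of 1 became 4 (DESeq2), 3 (library size only) and 12 (no filter), and 0 to 21 with a library left out. In batch 2 the count of 2 became 1 with DESeq2, RLE and library size only, and 0 to 3 with a library left out. With the replicate block, which follows the pairing of library numbers, 4 members were called over both batches (SNORD12, SNORD12C, SNORD100 and SNORD118, of which 3 are shared with the unblocked fit), with a median of 0.32, 1 in batch 2 (SNORD12C) and 6 in the interaction. In batch 1 the block rests on HHH replicate 2 against general replicate 2 alone. The block changed no call of a host gene. The interaction count of 0 was also 6 without the filter and 0 to 2 with a library left out. Host genes called, 0, became 1 (SNHG25) without HHH batch 1 replicate 3 and ranged from 0 to 1. Except where the alternative itself tests fewer genes or samples or sets another limit, the cause was not tested. Of 15 named members not past the adjusted p, 10 changed sign under some alternative and 3 passed it under some. Low counts, from 17 in SNORD6, limit the precision of the lowest members.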
